A study of Mus musculus with 30 samples.

Results

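The 10 libraries of bone marrow haematopoietic stem cells (HSCs) from 2-month-old mice were divided into sets chosen by their measured level of Mpo, the gene of myeloperoxidase. The 6 libraries with an Mpo normalized count of at least 20000 form the high-Mpo set, and the other 4 form the low-Mpo set. They are 10 of the 30 libraries in the series. The high-Mpo set holds IL1R1 KO replicates 1 and 3, germ-free replicates 1 and 3, and wild-type replicates 2 and 4. The low-Mpo set holds IL1R1 KO replicate 2, germ-free replicate 2, and wild-type replicates 1 and 3. The split follows measured Mpo and is not a label of the study, so the libraries of a set are not replicates of a condition, and every difference in a gene between the sets at 2 months is a description with no test. The other 20 libraries, from mice of 1 and 2 years, played no part in the split, and the tests of genes below use them.

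Mice labelled IL1R1 KO carry a knockout of the type 1 interleukin-1 receptor, mice labelled germ-free had a bowel without microbes, and wild-type mice had neither label. Per the labels, 4000 to 5000 cells were sorted into each library and copied by Smart-seq2, a method that reads whole polyadenylated transcripts without marking strand. The sources used here do not give the allele, the sex of the mice or the surface markers of the sort. Nothing in the labels states that each replicate is another animal, and every p-value therefore measures the spread between libraries, which may be technical. Il1r1 itself had 186, 247 and 262 normalized counts in the 2-month libraries labelled IL1R1 KO, against 137, 142, 182 and 256 in wild type. The sources used here do not say which part of the gene was deleted, so this level does not check the label.

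Myeloperoxidase is made in quantity by granulocyte-monocyte progenitors, which pack it into primary granules together with the serine proteases neutrophil elastase and cathepsin G. HSCs stand above these progenitors in the blood hierarchy and renew themselves while giving rise to all blood lineages. Within the granulocyte lineage, primary granule genes are active first, and genes of the later granules, such as lactoferrin, follow as the cells mature.

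Mpo (ENSMUSG00000009350, chromosome 11, 87793581 to 87804413, plus strand, GRCm38) had 29251 and 23626 normalized counts in the high-Mpo IL1R1 KO libraries, 56547 and 35471 in the high-Mpo germ-free libraries, and 73276 and 60867 in the high-Mpo wild-type libraries. In the low-Mpo libraries it had 3075 in IL1R1 KO, 4.33 in germ-free, and 392 and 1159 in wild type. The library just inside the threshold was IL1R1 KO replicate 3 with 23626, and the one just outside it was IL1R1 KO replicate 2 with 3075. In the 20 older libraries Mpo lay between 20.5 and 16541, with a median of 1938, so none reached the threshold.

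The promoters of Mpo and of 3 primary granule genes that separated the sets, Elane, Ctsg and Ms4a3, are shown because these genes lead the granule result, and that of Prtn3 because it lies beside Elane on chromosome 10 and did not separate them. Prtn3 was chosen for display after its values were seen. Each runs from 250 bases before to 50 bases after the RefSeq start on GRCm38.p6, written in the direction of the gene, and capitals mark the letters GAGGAAG, a purine-rich motif of the kind that Ets factors such as PU.1 bind. Mpo lies at chr11:87793534-87793833 on the plus strand, Elane at chr10:79886062-79886361 on the plus strand, Ctsg at chr14:56102525-56102824 on the minus strand, Ms4a3 at chr19:11640802-11641101 on the minus strand, and Prtn3 at chr10:79879417-79879716 on the plus strand.
Mpo: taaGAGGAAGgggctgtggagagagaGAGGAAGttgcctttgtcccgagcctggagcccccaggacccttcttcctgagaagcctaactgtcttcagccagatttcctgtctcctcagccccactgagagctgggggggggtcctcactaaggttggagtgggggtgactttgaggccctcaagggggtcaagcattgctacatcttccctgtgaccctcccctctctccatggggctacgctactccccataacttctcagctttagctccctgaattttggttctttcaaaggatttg
Elane: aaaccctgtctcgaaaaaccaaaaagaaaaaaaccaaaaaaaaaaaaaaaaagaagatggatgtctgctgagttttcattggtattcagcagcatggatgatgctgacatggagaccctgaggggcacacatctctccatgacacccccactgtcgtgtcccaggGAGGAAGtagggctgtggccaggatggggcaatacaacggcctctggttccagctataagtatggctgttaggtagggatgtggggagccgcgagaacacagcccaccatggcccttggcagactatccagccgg
Ctsg: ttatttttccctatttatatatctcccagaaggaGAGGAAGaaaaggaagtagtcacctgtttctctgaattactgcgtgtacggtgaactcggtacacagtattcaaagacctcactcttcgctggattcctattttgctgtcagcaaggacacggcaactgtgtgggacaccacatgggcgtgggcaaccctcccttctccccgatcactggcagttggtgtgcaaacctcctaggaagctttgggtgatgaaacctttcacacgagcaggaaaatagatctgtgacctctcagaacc
Ms4a3: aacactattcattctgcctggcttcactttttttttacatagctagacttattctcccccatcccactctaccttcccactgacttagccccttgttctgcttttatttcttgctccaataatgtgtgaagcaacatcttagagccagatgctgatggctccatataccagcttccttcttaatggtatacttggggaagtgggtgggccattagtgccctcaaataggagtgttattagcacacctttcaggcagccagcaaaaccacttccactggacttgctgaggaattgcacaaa
Prtn3: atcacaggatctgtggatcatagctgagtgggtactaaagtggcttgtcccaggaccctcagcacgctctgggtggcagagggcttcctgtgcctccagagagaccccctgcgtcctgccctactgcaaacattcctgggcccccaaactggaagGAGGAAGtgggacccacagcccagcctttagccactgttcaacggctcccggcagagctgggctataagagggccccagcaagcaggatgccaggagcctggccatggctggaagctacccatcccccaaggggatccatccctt

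The Mpo promoter held GAGGAAG at 247 and 224 bases before the start, Elane at 85, Ctsg at 216 and Prtn3 at 95, and these letters are not in the Ms4a3 window. Nor are they in the windows of Cst7, Igsf6 and Plac8, the other primary granule genes that separated the sets (below), which are not shown. Of the 144 genes that were higher in high-Mpo libraries (below), 97 had a RefSeq promoter, and GAGGAAG on either strand was in 25.8% of them, against 13.3% of the promoters of 11917 tested genes and 13.5% of all 27025. TTGCNNAA, a core of C/EBP sites, was in 20.6% of the promoters of higher genes, against 8.77% of those of tested genes. TGTGGT, the core of Runx sites, was in 29.9%, against 13.1% of those of tested genes. CCAAT was in 39.2% against 38.7%, AGATAA, of Gata factors, in 11.3% against 7.43%, and AACNG, of Myb, in 82.5% against 78.2%. Motifs were counted on both strands with no regard to overlap between them. These shares describe letters in the windows and were not tested.

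A gene was counted as separating the sets where all 6 high-Mpo libraries lay on 1 side of all 4 low-Mpo libraries and the fitted difference was at least 1 on the log2(normalized count + 1) scale, with the mouse group (IL1R1 KO, germ-free or wild type) as a block. Of 16957 genes tested besides Mpo, 168 (0.991%) did so. With no minimum difference, 329 genes (1.94%) did not overlap, of which 249 (1.47%) were higher and 80 (0.472%) lower. The 168 divided into 144 (0.849%) higher and 24 (0.142%) lower in high-Mpo libraries. Among the 144, 50 differed by at least 4 on the log2 scale, 48 by 2 to 4 and 46 by 1 to 2. The median difference over all genes was -0.0025. The 144 genes held 0.331% to 0.754% of the summed normalized counts in high-Mpo libraries, against 0.0922% to 0.148% in low-Mpo libraries. Of the 144, 9 passed the filter on low values only through the high-Mpo libraries, so that their difference was built in. Protein-coding genes made up 93.8% of the 144 and 75% of the 24, against 90.0% of all genes tested.

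**Figure D1:**
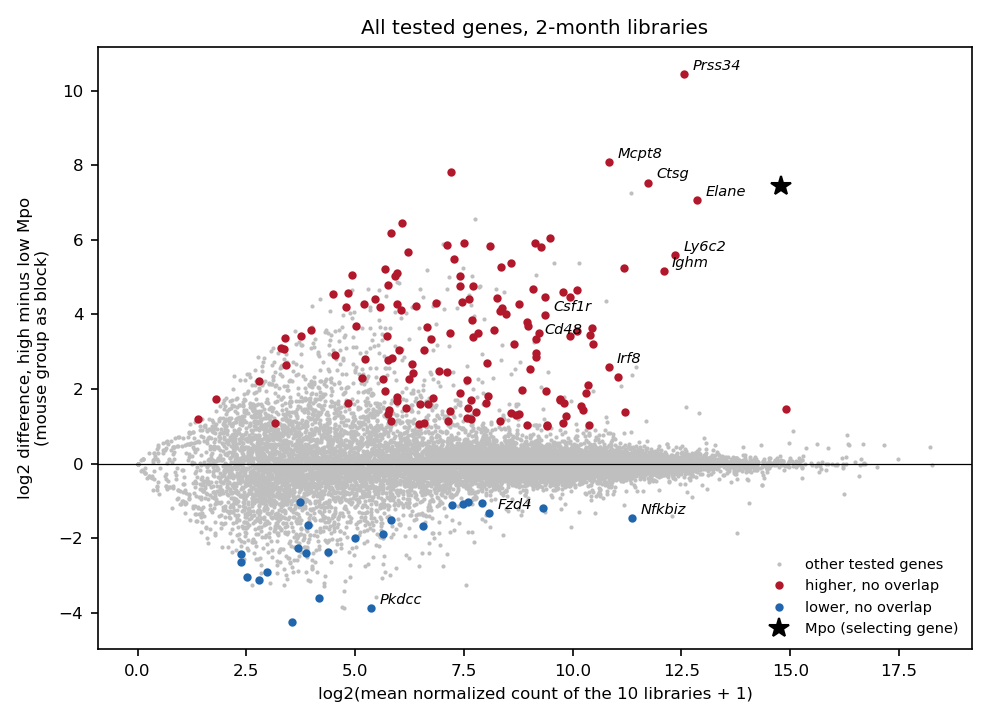
Fitted log2 difference, high-Mpo minus low-Mpo (y axis), against log2 of the mean normalized count of the 10 libraries plus 1 (x axis), 1 point per tested gene. The 144 higher genes (red) reach 10.43 and the 24 lower genes (blue) reach -4.23, and Mpo, the selecting gene, is drawn as a star.

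No measure of depth separated the sets. Estimated depth was 20.0 to 32.1 M reads in high-Mpo libraries, against 22.2 to 35.7 M in low-Mpo libraries (exact permutation test within mouse group, two-sided p = 0.907, smallest p possible 0.0185). Genes above 0 numbered 17030 to 18660 in high-Mpo libraries, against 17425 to 18287 in low-Mpo libraries (exact permutation p = 0.685). Library sums were 27.5 to 30.7 M in high-Mpo and 28.4 to 28.5 M in low-Mpo libraries (exact permutation p = 0.278), and the share of the most abundant gene was 1.02% to 1.99% in high-Mpo and 1.05% to 1.16% in low-Mpo libraries (exact permutation p = 0.667). The adjusted p was 0.907 for all 4 measures. The most abundant gene was not the same in all libraries. It was mt-Co1, of the mitochondrial genome, in the high-Mpo IL1R1 KO and wild-type libraries. In the high-Mpo germ-free libraries and all low-Mpo libraries it was Eef1a1.

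Among primary granule genes, 6 of 12 members besides Mpo were higher in high-Mpo libraries without overlap and none was lower, with a median log2 difference of 1.55. Over all tested genes 0.849% were higher and 0.142% lower, and each later count for a list or family stands against these shares. Elane, neutrophil elastase (ENSMUSG00000020125, chromosome 10, 79886247 to 79888215), had a lowest, median and highest normalized count of 5307, 12141 and 19761 in high-Mpo libraries. The low-Mpo libraries, in the order IL1R1 KO replicate 2, germ-free replicate 2, wild-type replicates 1 and 3, which is kept for all low-Mpo values, held 705, 2.29, 72.8 and 557. Each high-Mpo library thus held several times the level of the highest low-Mpo library, and the difference was 7.06 ± 1.39 (SE of the fit) on the log2 scale. Ctsg, cathepsin G (chromosome 14, 56099881 to 56102574), had 2675, 5664 and 8503 as lowest, median and highest in high-Mpo libraries, against 202, 0, 55.1 and 101 in low-Mpo libraries. Its difference was 7.54 ± 1.26 (SE). Ms4a3, a membrane protein that marks granulocyte-monocyte progenitors, had 464 to 1886 in high-Mpo libraries, against 83.4, 0, 20.6 and 65.0 in low-Mpo libraries, a difference of 6.06 ± 0.94 (SE). In all 3 genes the germ-free low-Mpo library was lowest, as it was for Mpo. Within IL1R1 KO, germ-free and wild type the difference was 3.25, 11.81 and 6.43 for Elane. In the same order it was 3.82, 12.56 and 6.67 for Ctsg, and 2.89, 10.16 and 5.45 for Ms4a3.

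The remaining granule genes that separated the sets had smaller differences. Cst7, the protease inhibitor cystatin F, differed by 4.00 ± 0.35 (SE), Igsf6, an immunoglobulin-type membrane protein, by 3.50 ± 0.44 (SE), and Plac8 by 2.32 ± 0.28 (SE). Prtn3, proteinase 3, which is stored in the same granules as elastase, had 6757, 9555 and 13098 as lowest, median and highest in high-Mpo libraries, against 6032, 4893, 6772 and 6982 in low-Mpo libraries. The sets overlapped by a narrow margin, germ-free replicate 3 of the high-Mpo set lying below 2 low-Mpo wild-type libraries, and the difference was 0.70 ± 0.13 (SE). Prtn3 was thus abundant in all 10 libraries, and the low-Mpo germ-free library held 4893 of it beside 4.33 of Mpo. Srgn, the proteoglycan core on which granule proteases are stored, had 19684 to 22750.0 in high-Mpo libraries and 21004 to 22151 in low-Mpo libraries, a difference of -0.03 ± 0.07 (SE). The summed list, without Mpo, stood at 59667 to 95668 in high-Mpo libraries, against 39434 to 49036 in low-Mpo libraries, with no member at 0 in all libraries of either set.

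**Figure D2:**
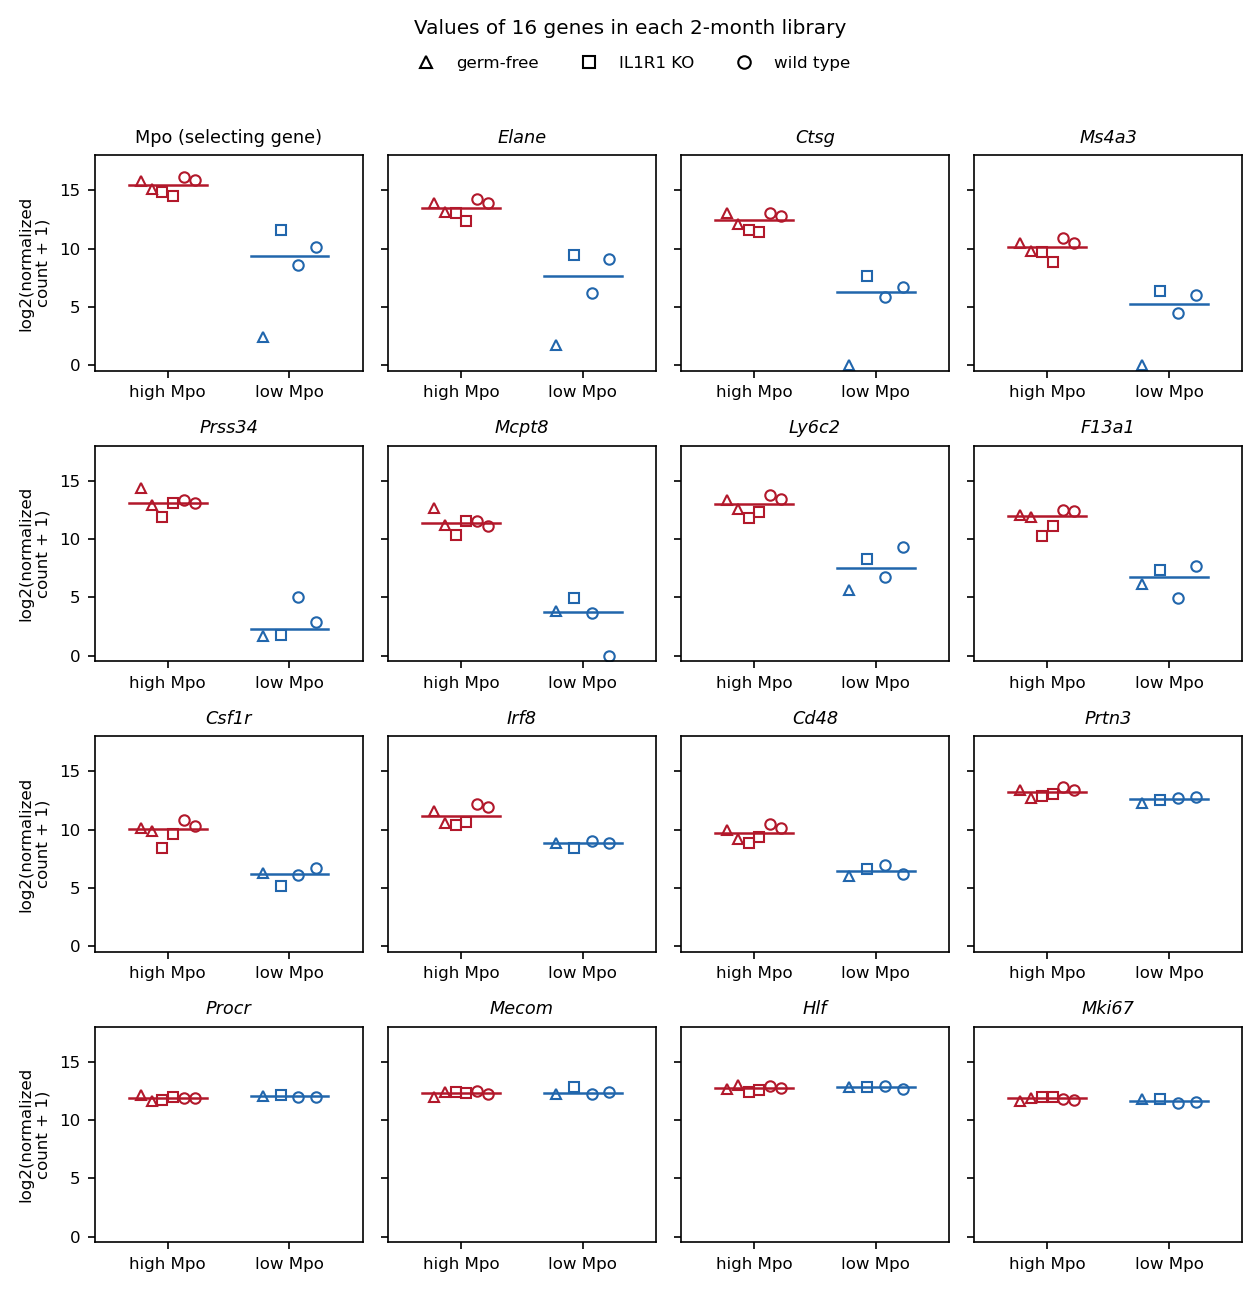
Log2(normalized count + 1) of 16 genes (y axis) in each 2-month library (1 point each, shape for mouse group), high-Mpo at left and low-Mpo at right, with the median of each set as a bar. Mpo and the 10 genes from Elane to Cd48 separate the sets, while Prtn3 (difference 0.70), Procr, Mecom, Hlf and Mki67 overlap.

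Levels relative to Mpo are given as a description, since Mpo chose the sets and its own range is bounded by the rule in high-Mpo libraries. Elane stood at 22.5% to 29.2% of the Mpo count in high-Mpo libraries, with a median of 26.3%, against 18.6% to 52.8% in low-Mpo libraries. Ctsg stood at 10.4% to 14.7% of Mpo in high-Mpo libraries, against 0% to 14.1% in low-Mpo libraries. The basophil protease Prss34 stood at 12.7% to 37.4% of Mpo in high-Mpo libraries, against 0.0777% to 53.2% in low-Mpo libraries. In the 20 older libraries Elane stood at 5.85% to 144% of Mpo (median 28.6%), Ctsg at 2.75% to 43.9% (median 11.3%) and Prss34 at 0% to 1117% (median 2.64%). These ratios share Mpo as denominator and carry no length correction, so they compare libraries and not genes.

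Mast cell, basophil and eosinophil markers showed the largest differences of any list. Of 12 members, 9 passed the filter on low values and 5 of these were higher in high-Mpo libraries without overlap, with a median of 5.38, or 4.67 without Ms4a2, which was listed at 0 in all 4 low-Mpo libraries. Prss34, a serine protease of basophils (ENSMUSG00000056399, chromosome 17, 25298394 to 25300165), had 3719, 8543 and 21169.6 as lowest, median and highest in high-Mpo libraries, against 2.39, 2.30, 30.8 and 6.40 in low-Mpo libraries. Every low-Mpo library was close to 0, and the difference of 10.43 ± 0.54 (SE) was the largest of all tested genes. Mcpt8, the other defining basophil protease (chromosome 14, 56082166 to 56085273), had 1292, 2628 and 6379.8 in high-Mpo libraries, against 30.7, 13.5, 11.3 and 0 in low-Mpo libraries, a difference of 8.09 ± 0.77 (SE). Germ-free replicate 1 was highest and IL1R1 KO replicate 1 lowest of the high-Mpo libraries for both proteases, an order that Mpo did not share.

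The high-affinity IgE receptor followed the basophil proteases. Its alpha chain Fcer1a had 114 to 952 in high-Mpo libraries, against 19.3, 0, 2.80 and 21.2 in low-Mpo libraries, a difference of 5.83 ± 0.90 (SE). Its beta chain Ms4a2 had 87.4 to 402 in high-Mpo libraries. Cpa3, a carboxypeptidase of mast cells, basophils and their progenitors, was detected in every library, with 321 to 1485 in high-Mpo libraries, against 71.6, 95.4, 156 and 124 in low-Mpo libraries, a difference of 2.98 ± 0.28 (SE). Cd200r3, a receptor of basophils and mast cells outside the list, had 134 to 281 in high-Mpo libraries, against 0.369, 54.0, 0.444 and 0 in low-Mpo libraries. The eosinophil granule genes Prg2 and Epx overlapped between the sets, with 71.3 to 3935 of Prg2 in high-Mpo libraries, against 19.1, 1.15, 21.2 and 612 in low-Mpo libraries. Epx was listed at 0 in both high-Mpo IL1R1 KO libraries. The mast cell proteases Cma1 and Tpsb2 were above 0 only in the high-Mpo germ-free libraries among the 10, and with Mcpt4 they did not pass the filter. The summed list reached 5812 to 35644 in high-Mpo libraries, against 142 to 1187 in low-Mpo libraries. In bulk libraries, more cells of a type and more RNA of that type per cell cannot be told apart, here or in the lists that follow.

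Monocyte, macrophage and dendritic markers had the highest share of separating members, with 10 of 15 higher without overlap and a median of 3.46. F13a1, the A subunit of coagulation factor XIII, made by monocytes and their progenitors, had 1207, 4139 and 5713 as lowest, median and highest in high-Mpo libraries, against 162, 69.2, 30.4 and 206 in low-Mpo libraries. Its difference was 5.25 ± 0.57 (SE). Ccr2, the receptor that brings monocytes out of the marrow, had 345 to 2296 in high-Mpo libraries, against 83.8, 59.7, 38.7 and 37.6 in low-Mpo libraries, a difference of 4.59 ± 0.47 (SE). Clec12a, an inhibitory lectin receptor of myeloid cells, had 764 to 2754 in high-Mpo libraries, against 64.4, 36.9, 40.0 and 267 in low-Mpo libraries, a difference of 4.65 ± 0.47 (SE). None of these genes overlapped between the sets, and the highest low-Mpo library was wild-type replicate 3 for F13a1 and Clec12a but IL1R1 KO replicate 2 for Ccr2.

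Markers of macrophages, plasmacytoid dendritic cells and mature myeloid cells were also in this list. Adgre1, which encodes the macrophage antigen F4/80, had 16.9 to 258 in high-Mpo libraries, against 0, 0, 6.18 and 1.86 in low-Mpo libraries, a difference of 5.68 ± 0.66 (SE). Siglech, a marker of plasmacytoid dendritic cells, had 18.3 to 198 in high-Mpo libraries, against 1.28, 6.07, 4.88 and 0 in low-Mpo libraries. Lyz2, lysozyme of monocytes and granulocytes, was abundant throughout, with 21736 to 52023 in high-Mpo libraries, against 13027, 12810.0, 13908 and 21103 in low-Mpo libraries, a difference of 1.46 ± 0.18 (SE). Itgam, Fcgr1, Cd68 and Cx3cr1 were among the members that overlapped. The summed list stood at 27411 to 72736 in high-Mpo libraries, against 15249 to 24330 in low-Mpo libraries.

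**Figure D3:**
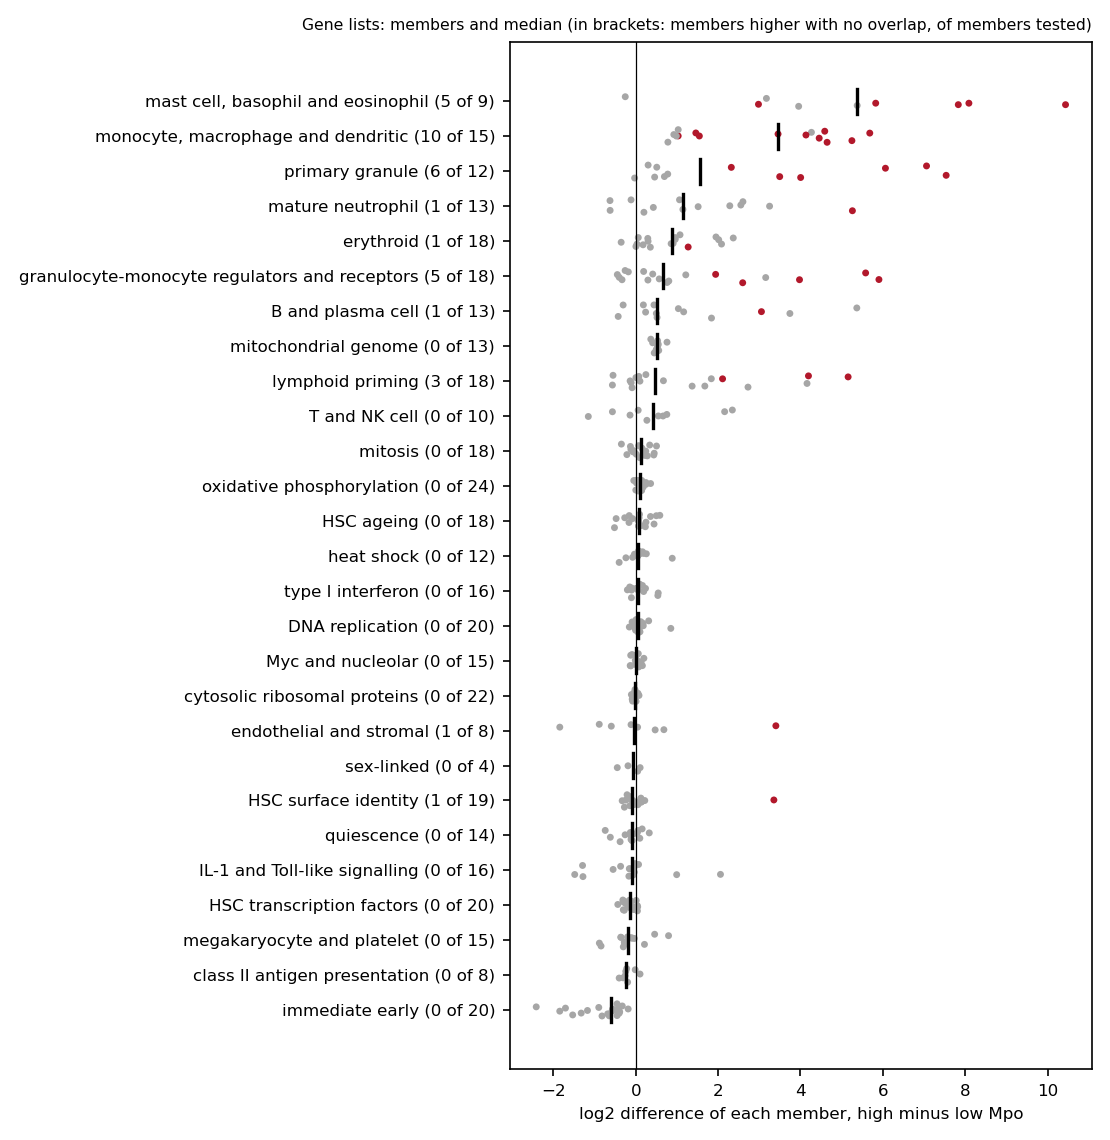
Fitted log2 difference, high-Mpo minus low-Mpo (x axis), of each tested member of 27 gene lists (y axis, ordered by median). Red points separate the sets, black bars are list medians, and brackets give how many members separated of those tested. The mast cell and monocyte lists have medians of 5.38 and 3.46, and the stem cell lists have medians of -0.08 and -0.14.

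Regulators and receptors of the granulocyte-monocyte lineage divided. Of 18 members, 5 were higher without overlap and none lower, with a median of 0.67. Irf8, a transcription factor that commits progenitors to the monocyte and dendritic fates, had 1385, 2383 and 4837 as lowest, median and highest in high-Mpo libraries, against 334, 454, 532 and 472 in low-Mpo libraries, a difference of 2.60 ± 0.23 (SE). Csf1r, the receptor for macrophage colony-stimulating factor, had 341 to 1839 in high-Mpo libraries, against 33.9, 78.0, 66.7 and 100.4 in low-Mpo libraries, a difference of 3.98 ± 0.27 (SE). Cebpa, the C/EBP factor needed to form granulocyte-monocyte progenitors, had 28.8 to 141 in high-Mpo libraries, against 19.5, 23.5, 7.69 and 17.5 in low-Mpo libraries, a difference of 1.94 ± 0.52 (SE). The sets for Cebpa were parted by a small gap, between IL1R1 KO replicate 1 of the high-Mpo set and the germ-free low-Mpo library.

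Among surface proteins of this lineage, Fcgr3 and Ly6c2 separated the sets. Fcgr3, a low-affinity IgG receptor used to define granulocyte-monocyte progenitors, had 311 to 1188 in high-Mpo libraries, against 0, 19.2, 16.8 and 247 in low-Mpo libraries. Ly6c2, an antigen of monocytes and their progenitors, had 3682, 8407 and 13949 as lowest, median and highest in high-Mpo libraries, against 319.5, 47.9, 104 and 633 in low-Mpo libraries, a difference of 5.58 ± 0.66 (SE). Ly6c2 can share reads with the near-identical Ly6c1, so its own value is uncertain. Spi1, which encodes PU.1, did not separate the sets, with 2959 to 4322 in high-Mpo libraries and 2587 to 3863 in low-Mpo libraries, a difference of 0.19 ± 0.09 (SE). Gfi1, a repressor active in granulocyte progenitors and stem cells, also overlapped, with a difference of -0.45 ± 0.32 (SE), and so did Cebpe, the C/EBP factor of later granules, whose difference was 3.16 ± 0.89 (SE).

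Mature neutrophil markers mostly overlapped between the sets. Of 13 members, only Fcnb, a ficolin stored in neutrophil granules, separated the sets, with 218 to 972 in high-Mpo libraries, against 48.3, 0, 2.64 and 166 in low-Mpo libraries, a difference of 5.26 ± 1.19 (SE). Ltf, lactoferrin of the secondary granules, had 2476 and 764 in the high-Mpo IL1R1 KO libraries, 1100.25 and 20459 in the high-Mpo germ-free libraries, and 22.7 and 42.6 in the high-Mpo wild-type libraries. In low-Mpo libraries Ltf had 274 in IL1R1 KO, 13.3 in germ-free, and 1413 and 7593 in wild type. The 2 wild-type libraries of highest Mpo were thus among the lowest for lactoferrin. The median difference of the list was 2.23 within IL1R1 KO, 4.67 within germ-free and -1.34 within wild type, and the differences between these groups were not tested. Without germ-free replicate 2 the list median was -0.06, and without wild-type replicate 3 the separating members were 3. The summed list was 6484 to 121789 in high-Mpo libraries and 1523 to 43114 in low-Mpo libraries, which overlap.

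**Figure D4:**
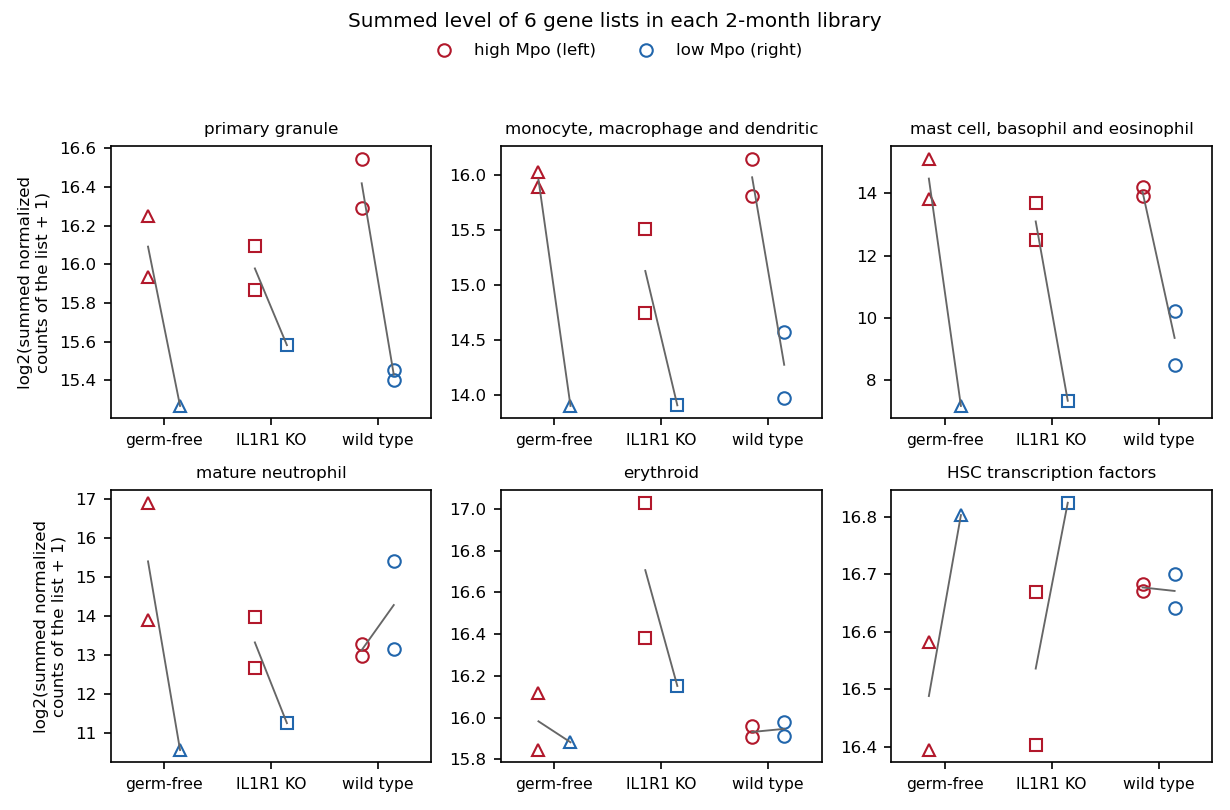
Log2 of the summed normalized counts plus 1 (y axis, own scale in each panel) of 6 gene lists in each 2-month library, by mouse group (x axis), with high-Mpo libraries left of low-Mpo libraries and a line joining their means. The primary granule, monocyte and mast cell sums separate the sets in all 3 mouse groups, whereas the mature neutrophil line runs the other way in wild type.

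Among erythroid markers 17 of 18 had a difference above 0, with a median of 0.88, and 1 separated the sets. The median was 1.73 within IL1R1 KO, 0.34 within germ-free and -0.07 within wild type, and it was 0.25 without IL1R1 KO replicate 2. The separating members were 0 without that library, 2 without germ-free replicate 1 and 6 without germ-free replicate 2. The 1 gene was Ermap, an erythroid membrane protein, with 774 to 1869.8 in high-Mpo libraries, against 183, 668, 627 and 668 in low-Mpo libraries. Its difference of 1.27 ± 0.36 (SE) was 0.59 without IL1R1 KO replicate 2. Gata1, the master factor of erythroid and mast cell lineages, had a difference of 0.00 ± 0.23 (SE). Of 15 megakaryocyte and platelet markers none separated, against 0.991% of all genes, with a median of -0.20.

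Lymphoid priming genes separated in 3 of 18 members, or in 5 without IL1R1 KO replicate 1 or wild-type replicate 3. Ighm, the mu heavy chain, which is transcribed without rearrangement in early progenitors as well as in B cells, had 1111, 6156 and 13938 as lowest, median and highest in high-Mpo libraries, against 62.7, 162, 274 and 262 in low-Mpo libraries, a difference of 5.16 ± 0.61 (SE). Ly6d, an antigen of early B-lineage progenitors, differed by 4.19 ± 0.79 (SE). Flt3, the cytokine receptor of lymphoid-primed progenitors, overlapped, with 702 to 1312 in high-Mpo libraries and 857 to 2338 in low-Mpo libraries. Cd79a, of the B cell receptor, was the only 1 of 13 B and plasma cell markers to separate, at 3.05 ± 0.67 (SE), or 1.99 without germ-free replicate 2, and 2 members separated without IL1R1 KO replicate 3 or wild-type replicate 3. Of these 13 markers, 11 had a difference above 0, with a median of 0.52. That median was -0.17 within IL1R1 KO, 4.46 within germ-free and 0.21 within wild type. Pax5, a defining factor of B cells, was listed at 0 in both high-Mpo wild-type libraries. Igkv19-93, an immunoglobulin variable gene named after its values were seen, also separated the sets. It had 5390 in IL1R1 KO replicate 1, 8.29 to 19.4 in the other high-Mpo libraries and at most 0.932 in low-Mpo libraries. None of 10 tested T and NK cell markers separated, against 0.991% of all genes. Of 8 tested endothelial and stromal markers Vcam1, an adhesion molecule also present on macrophages, separated at 3.40 ± 0.77 (SE), or 2.16 without germ-free replicate 2. How much cells of these or the myeloid lineages contributed to the libraries was not tested.

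The labelled cell type was checked by stem cell genes, which were high in all 10 libraries. Procr, the endothelial protein C receptor of HSCs, had 3209.9 to 4480.1 in high-Mpo libraries, against 4520.3, 4373, 4009 and 3982 in low-Mpo libraries, a difference of -0.16 ± 0.11 (SE). Slamf1, or CD150, had 1883 to 3583 in high-Mpo libraries and 1942 to 3141 in low-Mpo libraries. The transcription factors Mecom and Hlf, both needed for HSC maintenance, differed by -0.13 ± 0.11 and -0.09 ± 0.10 (SE). None of 20 HSC transcription factors separated the sets, where 0.991% of all genes did, so their count is near that share. Of the 20 factors, 16 had a difference below 0, with a median of -0.14. Their sum was 86153 to 105248 in high-Mpo libraries and 102247 to 116041 in low-Mpo libraries, which overlap.

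Among 19 surface genes of HSC identity, Cd48 alone separated the sets. CD48 is absent from the long-lived HSCs of SLAM-marker sorts and present on progenitors and most mature blood cells. Cd48 (chromosome 1, 171682009 to 171705258) had 465, 841 and 1444 as lowest, median and highest in high-Mpo libraries, against 99.3, 62.1, 127 and 70.7 in low-Mpo libraries, a difference of 3.35 ± 0.29 (SE). The lowest high-Mpo library was above all low-Mpo libraries by a wide gap. The other 18 members ranged no further than -0.33, the value of Cd34, below 0, and their list median was -0.08.

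Lists of cell state held no separating gene with all 10 libraries. None was counted among 14 quiescence genes, 18 of HSC ageing, 18 of mitosis, 20 of DNA replication, 15 Myc and nucleolar genes, 24 of oxidative phosphorylation, 22 ribosomal proteins, 16 of the type I interferon response, 8 of class II antigen presentation, 12 heat shock genes, 16 of IL-1 and Toll-like signalling and 4 sex-linked genes, against 0.991% of all genes. Mki67, made in dividing cells, had 3155 to 3985 in high-Mpo libraries and 2788 to 3659 in low-Mpo libraries, a difference of 0.15 ± 0.09 (SE). The 13 protein genes of the mitochondrial genome all had a difference above 0, with a median of 0.51, but a summed level of 620132 to 1918330 in high-Mpo libraries and 620770 to 843229 in low-Mpo libraries, which overlap. The overlap came from the high-Mpo germ-free libraries, with 620132 and 833068. Within IL1R1 KO the median was 0.81, within germ-free 0.14 and within wild type 0.60. All 20 immediate early genes, switched on within minutes of cell stimulation or handling, had a difference below 0, with a median of -0.61. That median was 0.66 within IL1R1 KO, -1.80 within germ-free and -0.83 within wild type, and none of the 20 separated the sets. Without IL1R1 KO replicate 2, 5 of them separated and the median was -1.09, and without germ-free replicate 2 the median was -0.21. Without IL1R1 KO replicate 2, 1 quiescence gene and 1 gene of IL-1 and Toll-like signalling also separated. Nr4a3 was furthest, at -2.42 ± 0.63 (SE), with 13.1 to 49.7 in high-Mpo libraries, against 24.4, 559.5, 175 and 412 in low-Mpo libraries. In the older libraries (below) the direction was the other way. All 20 immediate early genes had a slope on log2 Mpo above 0 there, against 51.8% of all genes, with a median of 0.08, and none was called.

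Of the 144 higher genes, 110 were in no list. Gene families were counted over all tested genes, list members included, and were chosen after their values were seen. Of 13 tested Ms4a genes, membrane proteins coded side by side on chromosome 19, 5 were higher without overlap, namely Ms4a2, Ms4a3, Ms4a4c, Ms4a6c and Ms4a6d. Of 22 tested Clec genes, which encode C-type lectin receptors, 7 were higher, led by Clec5a, an activating receptor of monocytes and neutrophils, with 117 to 674 in high-Mpo libraries, against 0, 0, 13.2 and 68.7 in low-Mpo libraries. Of 7 Fc receptor genes, 3 were higher, and Tyrobp, the signalling adaptor of many activating receptors, differed by 3.20 ± 0.33 (SE). Hp, haptoglobin, differed by 3.64 ± 0.30 (SE). Cybb, the catalytic subunit of the phagocyte oxidase, differed by 3.55 ± 0.44 (SE), and complement component C3 by 5.81 ± 0.85 (SE). Cdh1, or E-cadherin, and Btla, an inhibitory receptor of lymphocytes, were listed at 0 in all 4 low-Mpo libraries and had 21.5 to 321 and 35.8 to 181 in high-Mpo libraries.

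The 24 lower genes were fewer and at low levels, with a median over genes of 10.1 in high-Mpo libraries and 41.9 in low-Mpo libraries. None was in a list. Nfkbiz, which encodes the inducible nuclear I-kappa-B protein zeta, was the most abundant, with 816, 1492 and 2387 as lowest, median and highest in high-Mpo libraries, against 6289, 3799, 2768 and 4177 in low-Mpo libraries, a difference of -1.45 ± 0.31 (SE). Fzd4, a Wnt receptor, had 124 to 202 in high-Mpo libraries, against 329, 539, 427 and 385 in low-Mpo libraries, a difference of -1.32 ± 0.25 (SE). Cdk14, a kinase of the cyclin-dependent family, had 241 to 572 in high-Mpo libraries, against 732, 717, 969.8 and 1512 in low-Mpo libraries, a difference of -1.17 ± 0.24 (SE). These 3 genes were lower in every high-Mpo library than in every low-Mpo library. Pkdcc, a secreted protein kinase, had the largest difference among those with a mean of at least 50 in a set, at -3.87 ± 1.05 (SE), with 0 to 22.4 in high-Mpo libraries, against 41.5, 169, 46.3 and 95.0 in low-Mpo libraries. Galnt5, Slc16a12, Cep112, Stx1a, Fam198b, Hes5 and Dzip1l lay between -1.04 and -1.99. Of these, Fam198b was -0.85 without wild-type replicate 2, and Stx1a was -0.83 without IL1R1 KO replicate 2.

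Whether other genes vary with Mpo was tested in the 20 older libraries, which range from 20.5 to 16541 in Mpo. A limma model with log2 Mpo as a continuous term and the groups by mouse and age as further terms called 5 genes of 16957 at an adjusted p of 0.05 (0.0295%), all rising with Mpo. None fell (0%), and 509 of the 16957 genes had an unadjusted p by limma under 0.05 in either direction. That is fewer than the 1 in 20 that chance gives. Elane rose by 0.93 ± 0.10 log2 units per log2 unit of Mpo (SE, limma adjusted p = 3.56e-04), and lay between 3.33 and 4320 in the older libraries. Ctsg rose by 0.78 ± 0.08 (SE, limma adjusted p = 1.32e-04), and lay between 1.68 and 1622. Irf4, a transcription factor of lymphoid and dendritic cells, rose by 0.69 ± 0.11 (SE, limma adjusted p = 0.0161), between 0 and 73.6. Clec12a rose by 0.45 ± 0.08 (SE, limma adjusted p = 0.0361), between 5.87 and 359. Trem3, a receptor of the TREM family on myeloid cells, rose by 0.77 ± 0.13 (SE, limma adjusted p = 0.0372), between 0 and 193.

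The calls differed in whether they held without single libraries. Elane and Ctsg passed without each of the 20 libraries in turn, with an adjusted p of at most 0.00274 and 0.00141. Irf4 lost its call without IL1R1 KO 1-year replicate 2 (adjusted p by limma 0.0920), wild-type 1-year replicate 1 (0.0502) or wild-type 1-year replicate 2 (0.165). Clec12a lost it in 11 of the 20 cases and Trem3 in 15, with adjusted p up to 0.389 and 0.178. The slopes in these cases stayed at 0.65 to 0.70 for Irf4, 0.40 to 0.48 for Clec12a and 0.62 to 0.84 for Trem3. At 1 year alone Ctsg passed by limma (adjusted p = 0.00544) and Elane did not (0.264), and at 2 years alone Elane passed (1.19e-04) and Ctsg did not (0.792). The slopes were 0.98 and 0.83 for Elane and 0.85 and 0.63 for Ctsg at 1 and 2 years. A test of the difference between ages gave an unadjusted p of 0.521 for Elane and 0.216 for Ctsg by limma, and that between IL1R1 KO and wild type gave 0.642 and 0.407.

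**Figure D5:**
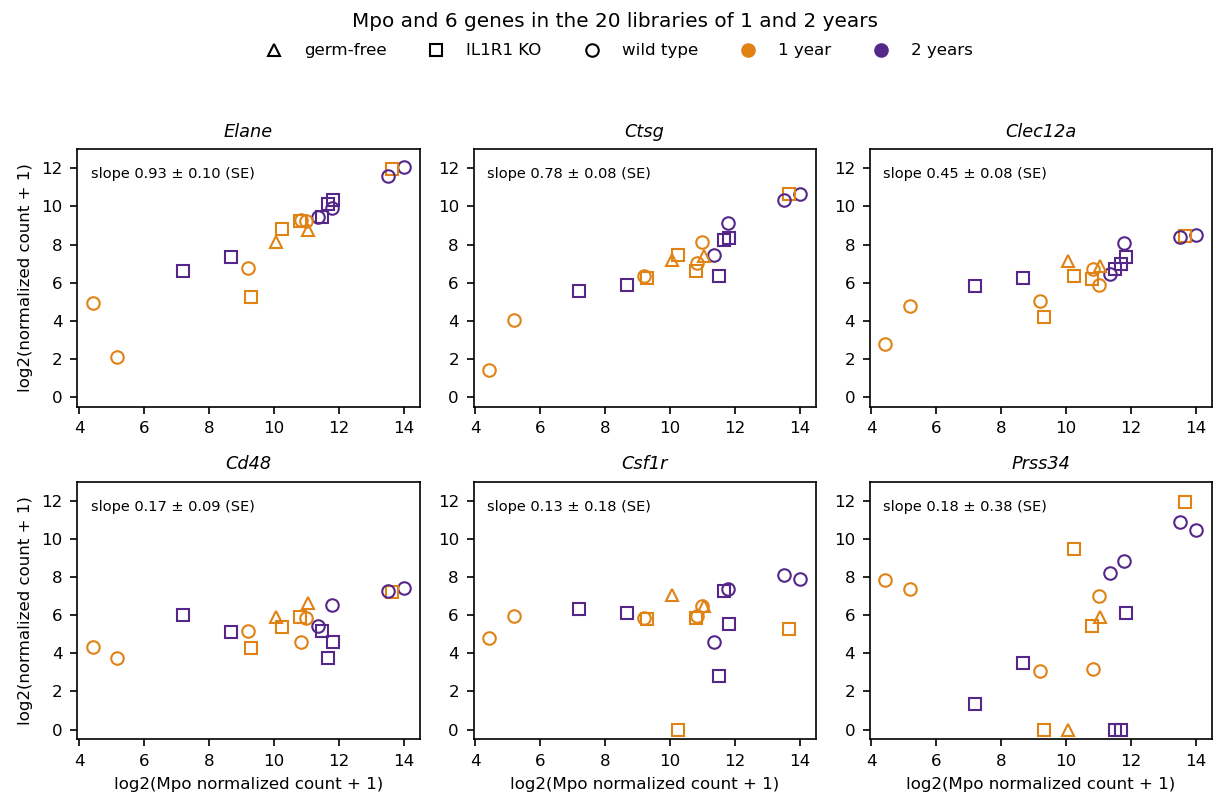
Log2(normalized count + 1) of 6 genes (y axis) against that of Mpo (x axis) in the 20 libraries of 1 and 2 years, by mouse group (shape) and age (colour), with the limma slope and its SE. Elane follows Mpo with a slope of 0.93, and Prss34 spreads from 0 to 3915 with a slope of 0.18.

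Of the 5 genes called in the older libraries, 3 (Elane, Ctsg and Clec12a) had also separated the 2-month sets, which is 60% of the 5 and 2.08% of the 144. Irf4 had overlapped at 2 months, with 2.33 to 94.2 in high-Mpo libraries, against 39.9, 33.4, 0.700 and 0 in low-Mpo libraries. Trem3 had overlapped through wild-type replicate 3, with 114 to 601 in high-Mpo libraries, against 0, 24.2, 0.964 and 156 in low-Mpo libraries. Slopes on Mpo in the older libraries were above 0 for 79.2% of the 144 genes, with a median of 0.107, against 51.8% of all genes, with a median of 0.00116. Of the 24 lower genes, 54.2% had a slope above 0. Genes share libraries, so these shares carry no test.

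Basophil, monocyte and stem cell genes were read in the same model. Prss34 had a slope of 0.18 ± 0.38 (SE, limma adjusted p = 1.00) and Mcpt8 of 0.30 ± 0.25 (SE, limma adjusted p = 1.00). All 9 tested mast cell, basophil and eosinophil markers had a slope above 0, with a median of 0.25, against a median of 0.00116 over all genes, and none of the 9 was called, where 0.0295% of all genes were. Slopes were also above 0 for all 13 mature neutrophil markers (median 0.39) and all 15 monocyte, macrophage and dendritic markers (0.07). The same held for all 12 heat shock genes (0.05), but for only 1 of 10 T and NK cell markers (-0.08) and 6 of 19 HSC surface genes (-0.01). Over all genes 51.8% of slopes were above 0. Across the 20 libraries r with Mpo was 0.12 for Prss34 and 0.28 for Mcpt8, and without wild-type 1-year replicates 2 and 5 it was 0.49 and 0.59 (n = 18). Prss34 reached 3915 in IL1R1 KO 1-year replicate 2, 1896 in wild-type 2-year replicate 1 and 1407 in wild-type 2-year replicate 4, the 3 older libraries of highest Mpo, but was listed at 0 in 4 others, among them IL1R1 KO 2-year replicate 3 with 3281 of Mpo. Cd48 had a slope of 0.17 ± 0.09 (SE), Irf8 of 0.07 ± 0.05 (SE) and Csf1r of 0.13 ± 0.18 (SE), none of them called by limma (adjusted p = 1.00 each). Ms4a3 had a slope of 0.51 ± 0.10 (SE) and was not called, with an adjusted p of 0.156 by limma. Procr, Mecom and Hlf had slopes of -0.01 ± 0.02, 0.00 ± 0.02 and -0.01 ± 0.02 (SE).

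The genes most like Mpo across the older libraries, by Pearson's r of log2 levels after the mean of each group by mouse and age was removed (n = 20 libraries, which share their depth and any other cells), were Elane at 0.91, Ctsg at 0.91, Irf4 at 0.86, Clec12a at 0.82, Trem3 at 0.82, Cnr2 at 0.80, Plekha4 at 0.78, Ms4a3 at 0.78, Mdm1 at 0.77 and Hp at 0.76. Spearman's rho for Elane and Ctsg was 0.97 and 0.92. Without the 2 libraries farthest from the median of Mpo, wild-type 1-year replicates 2 and 5 (n = 18), r was 0.92 for Elane, 0.86 for Ctsg and 0.87 for Ms4a3, but 0.49 for Mdm1 and 0.57 for Hp. These values describe the libraries and were not tested beyond the slopes above.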

How the data were processed

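RNA was measured in 30 libraries, 10 of them from 2-month mice. The deposited values are a signal, normalized counts per gene, which the authors made with Salmon 1.2.0.0 and DESeq2 1.26.0 after cutadapt 2.10 and FastQC 0.11.9 on GRCm38, per the submitters' processing notes. Between 9.70% and 18.4% of low values were whole reads (tolerance 0.001), so no count model was used. The table holds 35727 genes, of which 16958 reached 10 in at least 3 libraries. Depth was estimated as the library sum over the most frequent low value, which was assumed to be a single read. It was 15.6 to 56.3 M reads over all libraries.

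Values were analysed as log2(normalized count + 1), a scale that understates changes of low genes, with limma 3.58.1 in R 4.3.3 (trend and robust settings) and Benjamini-Hochberg adjustment over 16957 genes without Mpo. At 2 months the mouse group (IL1R1 KO, germ-free or wild type) was a block and no p was computed for genes. In older libraries the slope on log2 Mpo was tested two-sided with the groups by mouse and age as terms, and the threshold was an adjusted p of 0.05. Depth was compared by an exact permutation test over 54 arrangements within mouse group. All members and lists were chosen with earlier results of these data known. Named genes are Mpo, up to 12 of the largest differences in each direction among separating genes with a mean of at least 50 in either set, up to 3 separating genes of each list, and a fixed set of lineage and stem cell genes; a few other list members and family members were named after their values were seen. One library labelled 1 year in its title, IL1R1 KO replicate 1, has an age label of 2 months and was kept at 1 year. Alternatives changed the pseudocount, filter, threshold, block and libraries left out. Checks on simulated data preceded the main fit at 2 months and the main slope fit in older libraries, but not the other fits. Promoters came from RefSeq. Values of some list members are not reported here.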

Additional observations from a re-analysis of the deposited data

Results flagged for a closer look

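Among 122 sets of libraries and genes checked for a single library apart from the rest, 7 were found, where chance gives about 1 in 20. The value is the gap to the nearest library over the range of log2 levels. In high-Mpo libraries it was 0.704 for Hes5 (3.18 in wild-type replicate 2, 22.1 to 46.4 in the others), 0.655 for Fam198b (4.09 in wild-type replicate 2, 38.7 to 116 in the others), 0.679 for Stx1a (2.05 in IL1R1 KO replicate 3, 24.8 to 70.0 in the others) and 0.634 for Cd34 (9165 in IL1R1 KO replicate 1, 5224 to 6416 in the others). In low-Mpo libraries it was 0.908 for Cd200r3 (54.0 in germ-free replicate 2, 0 to 0.444 in the others), 0.951 for Ermap (183 in IL1R1 KO replicate 2, 627 to 668 in the others) and 0.852 for Gata1 (509 in germ-free replicate 2, 915 to 1013 in the others).

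For 6 of 61 named genes the log2 difference between high-Mpo and low-Mpo libraries had opposite signs in different mouse groups, with every library on the same side within each. With so few libraries in a group, such separation is frequent by construction, and its share over all genes was not counted. These contrasts were not tested. Ltf was 8.38 in germ-free and 2.32 in IL1R1 KO but -6.67 in wild type, which is 15.05 and 8.99 above wild type. Car1 was 1.69 in germ-free and 1.53 in IL1R1 KO but -1.47 in wild type, which is 3.16 and 3.00 above it. Gata1 was 0.58 in germ-free and 0.41 in IL1R1 KO but -0.65 in wild type, which is 1.22 and 1.06 above it. Cnr2 was 0.14 in germ-free and 1.08 in IL1R1 KO but -0.72 in wild type, which is 0.862 and 1.80 above it. Gfi1 was 0.25 in IL1R1 KO but -0.87 in germ-free and -0.63 in wild type, so that germ-free minus IL1R1 KO was -1.11 and IL1R1 KO minus wild type 0.878. Flt3 was 0.081 in IL1R1 KO but -1.18 in germ-free and -0.56 in wild type, with -1.26 for germ-free minus IL1R1 KO and 0.638 for IL1R1 KO minus wild type.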

How the results depend on the processing

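The 40 named separating genes kept the sign of their difference in every alternative run for them (up to 22 each). They were chosen for having no overlap. The sign was therefore fixed in advance in runs that left out libraries, took a mouse group alone, or changed the pseudocount or filter. Leaving out each library in turn gave 200 to 288 separating genes (160 to 238 higher, 27 to 101 lower), against 168 (144 and 24); with fewer libraries overlap is less likely by construction, and the count passed 1.5 times without IL1R1 KO replicate 1 (256), IL1R1 KO replicate 2 (277) or wild-type replicate 3 (288). Within IL1R1 KO alone 2223 genes separated (1122 higher, 1101 lower), within germ-free alone 2877 (1714, 1163) and within wild type alone 1856 (877, 979), for the same reason. Without a minimum difference there were 329 (249 higher, 80 lower), with a minimum of 2 there were 109 (11 lower), and with a mean of at least 50 there were 9 lower genes. With the library of disagreeing age labels at 2 months the count was 145. In older libraries the 5 calls became 2 to 6 without each library in turn. They became 2 without IL1R1 KO 1-year replicate 2 or wild-type 1-year replicate 1, and 3 without IL1R1 KO 1-year replicate 1, IL1R1 KO 2-year replicates 3 or 5, wild-type 1-year replicates 2 or 4, or wild-type 2-year replicates 1, 2 or 4. They were 3 with a pseudocount of 10, no filter, a mean of at least 50, limma without trend or robust settings, or, chosen after seeing the data, without the 2 wild-type 1-year libraries of lowest Mpo, and 1 within each age alone; the cause was not tested. The 3 genes shared by both comparisons were 2 to 5 without each library, 1 at 1 year alone, 1 at 2 years alone, and 5 within wild type or germ-free alone. Deviations of same-numbered replicates gave r of -0.110 to 0.165 at 2 months, with 1 of 9 pairs over 0.1. That pair was replicate 2 of germ-free and IL1R1 KO, both low-Mpo libraries. In older libraries r was -0.0723 to 0.157, with 3 of 33 pairs over 0.1. These 3 joined replicate 1 of germ-free 1 year, wild-type 1 year and wild-type 2 years (0.151 to 0.157). Whether such libraries shared a batch was not tested. With the replicate number as a block 166 genes separated (144 higher, 22 lower) and 4 were called in older libraries. Elane, Ctsg and Irf4 were among the 4, but neither Clec12a (limma adjusted p = 0.0532) nor Trem3 (0.130).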
